A study of Homo sapiens with 6 samples.

Results

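The 10 KLF genes examined were KLF2, KLF3, KLF4, KLF5, KLF6, KLF7, KLF9, KLF10, KLF11 and KLF13, which encode Kruppel-like transcription factors. Every probe set that the platform annotation assigns only to one of these genes was taken, which gave 32 of the 49193 probe sets on the array, and the 10 genes stood among 18129 with a probe set of their own. Total RNA of UMUC3-c31 cells, whose name points to the bladder cancer cell line UMUC3, was read on 6 Affymetrix arrays. All cells were first kept for 24 h in serum stripped of steroids with charcoal. The vehicle group (3 arrays) then received ethanol for 24 h, and the R1881 group (3 arrays) received 10 nM of the synthetic androgen R1881 for 24 h. The design text calls the 3 arrays of a group biological replicates. The sources used here do not say how c31 was derived or whether it is 1 clone.

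Kruppel-like factors bind GC-rich and CACCC-type DNA elements through zinc fingers at the carboxy terminus, and their amino-terminal parts decide which cofactors they recruit. KLF2, KLF4, KLF5, KLF6 and KLF7 belong to the branch known mainly as activators. KLF3 is a repressor that works through CtBP proteins, and KLF9, KLF10, KLF11 and KLF13 recruit the SIN3A and histone deacetylase corepressor. Several family members are early-response genes, and KLF9 is a known target of steroid hormone receptors in other tissues. In epithelia, KLF4 is tied to cell cycle exit and differentiation and KLF5 to proliferation.

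R1881 lowered KLF2 and raised KLF7 and KLF9, while the other 7 genes did not pass the threshold, an adjusted p of 0.05 in limma over all genes. On the log2 scale KLF2 fell by 0.78 ± 0.05 (SE), to 0.582 times the vehicle level. KLF7 rose by 0.59 ± 0.05 (SE), or 1.51-fold, and KLF9 by 0.45 ± 0.08 (SE), or 1.36-fold. Thus 3 of 10 genes passed, where 2.42% of all genes did. By direction, 2 of 10 were higher, against 1.6% of all genes, and 1 was lower, against 0.816%. KLF9 was the least secure call and was lost when any array but R1881 replicate 3 was left out (adjusted p up to 0.152). The genes were picked with earlier results of these data known, so these counts describe them and are no test of the family.

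The 250 bases before the annotated transcription start are shown for KLF2, KLF7 and KLF9, since these are the members that passed the threshold over genes. They come from RefSeq on GRCh38.p14, read 5′ to 3′ along the gene, and for KLF7, which has 4 annotated windows, the outermost start was used. Capitals mark the GC box GGGCGG, the CACCC box CACCC, the CCAAT box CCAAT, each on either strand, and a MEF2-type element, which is CTAAA followed directly by TTTAG and reads alike on both strands. A GC box can overlap another GC box.
KLF2, GRCh38.p14 chr19:16324576-16324825, plus strand: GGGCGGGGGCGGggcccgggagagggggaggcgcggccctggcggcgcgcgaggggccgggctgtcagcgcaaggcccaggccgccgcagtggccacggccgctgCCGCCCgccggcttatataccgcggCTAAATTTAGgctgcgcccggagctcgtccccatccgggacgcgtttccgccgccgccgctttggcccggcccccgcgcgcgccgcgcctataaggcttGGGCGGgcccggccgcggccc
KLF7, GRCh38.p14 chr2:207167247-207167496, minus strand: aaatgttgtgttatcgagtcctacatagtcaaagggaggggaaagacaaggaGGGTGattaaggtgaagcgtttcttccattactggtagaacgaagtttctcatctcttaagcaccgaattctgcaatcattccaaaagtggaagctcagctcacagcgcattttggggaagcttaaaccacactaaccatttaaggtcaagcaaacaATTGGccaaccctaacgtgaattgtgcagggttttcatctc
KLF9, GRCh38.p14 chr9:70414658-70414907, minus strand: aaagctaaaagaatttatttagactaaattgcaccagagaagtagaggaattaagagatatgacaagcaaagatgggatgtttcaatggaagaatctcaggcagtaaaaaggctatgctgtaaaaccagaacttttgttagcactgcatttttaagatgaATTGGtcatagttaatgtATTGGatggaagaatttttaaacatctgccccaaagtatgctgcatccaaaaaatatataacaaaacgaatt

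The KLF2 stretch held 4 GC boxes and the MEF2-type element, which begins 120 bases before the start. That exact run of letters was present in 0.057% of the 35116 promoter windows of the RefSeq table. Other forms of a MEF2 site were not searched, so their share is not known. MEF2 factors are known inducers of KLF2, downstream of the kinases MAP2K5 and MAPK7. The outermost KLF7 stretch held 1 CACCC box and 1 CCAAT box, and the KLF9 stretch held 2 CCAAT boxes and no GC box. GC boxes occurred in 42.6% of all windows, CACCC boxes in 54.7% and CCAAT boxes in 32.0%. The KLF2 stretch was 80.0% G and C, the KLF7 stretch 43.2% and the KLF9 stretch 32.4%. Of the KLF7 windows not printed, 1 was 72.0% G and C and held 4 GC boxes. Those at 41.6% and 58.0% held none.

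Windows were found for 8 of the 10 genes, 13 in all. A GC box was in 8 of the 13 windows, beside 42.6% of all windows. By gene, 7 of these 8 had a GC box in at least 1 window. Besides KLF2, the windows with a GC box held 4 for KLF4, 4 for KLF7, 3 for KLF13, 2 for KLF5 and 2 for KLF6. The KLF11 windows held 2 and 6. The hexamer AGAACA, the core of androgen and glucocorticoid receptor elements, was searched on both strands. It was found in 2 of the 13 windows, 1 of KLF5 and 1 of KLF7, and in 12.4% of all windows. The full palindrome, AGAACA and TGTTCT with 3 bases between them, was in none of the 13, and in 0.00285% of all windows. These are matches of letters in short windows, and no binding was measured.

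Levels below are log2 values made by the authors with RMA, which subtracts background, brings the arrays to a common distribution and joins the probes of each set into 1 value. Such levels depend on probe affinity as well as on RNA, so no gene's level is set against another's, and between genes only changes are compared. They are also bulk values, in which fewer cells of a kind and less RNA per cell cannot be told apart. Each gene is described on its brightest probe set over the 6 arrays. The level of 4.99, the 90th percentile of 423 olfactory receptor and keratin-associated protein genes, served as a proxy for background, and 9 of the 10 KLF genes exceeded it with vehicle or with R1881.

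**Figure D1:**
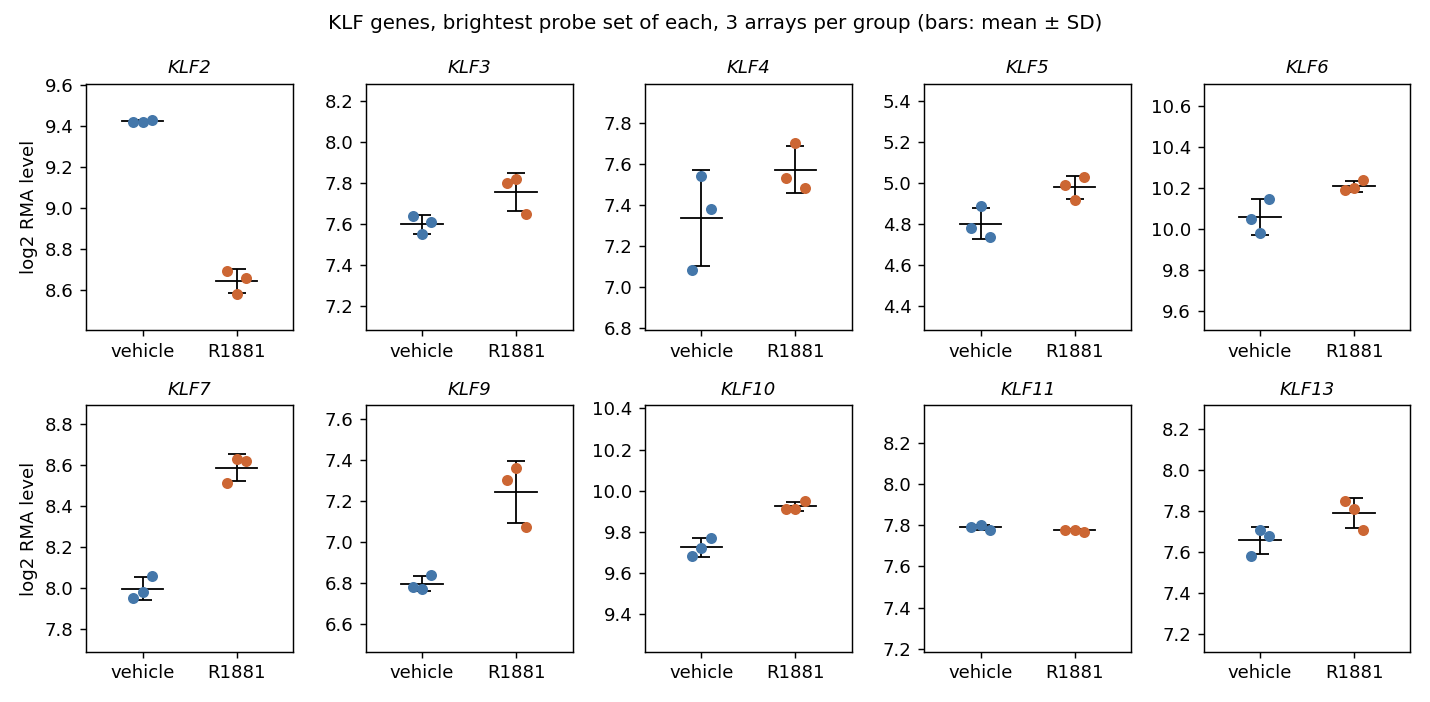
Log2 RMA level of each KLF gene on its brightest probe set, with 1 point per array, blue for vehicle and orange for R1881, and the mean with SD in black. Every panel spans the same range on the log2 scale, and KLF2 is the panel in which the R1881 arrays lie well below the vehicle arrays, while KLF7 and KLF9 lie above.

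Array medians were 5.49 to 5.51. On the second principal component over genes, which held 19.6% of the variance, vehicle replicate 1 scored 11.04 while vehicle replicates 2 and 3 scored -8.21 and -6.99. R1881 replicate 1 lay on the same side, at 5.69, with R1881 replicates 2 and 3 at -0.67 and -0.87. Without vehicle replicate 1, KLF2 and KLF7 kept their calls (adjusted p = 0.00385 and 0.0174, limma) and KLF9 did not (0.138). Defining urothelial markers were near the background level: 4 of 12 exceeded it in a group, UPK2 stood at 3.64 and KRT20 at 3.47 in vehicle, and none of the 12 changed. All 4 mesenchymal markers lay above background, with VIM at 14.10 and ZEB1 at 10.41 in vehicle. Of 6 epithelial keratin and junction genes, 3 did. In vehicle KRT18 stood at 10.75, but CDH1 at 3.17 and EPCAM at 2.65. Among these epithelial and mesenchymal markers, KRT7 (0.40 ± 0.06) and FN1 (0.73 ± 0.08) rose and KRT18 (-0.37 ± 0.05, SE) fell, and their part in the KLF values was not tested. Of other cell types, 2 of 7 endothelial, 2 of 6 immune and 1 of 5 fibroblast markers lay above background. PECAM1 stood at 4.44 and PTPRC at 3.00 in vehicle, while CD68 of the immune list stood at 8.93. FKBP5, a chaperone gene induced by several steroid receptors, rose by 1.49 ± 0.05 (SE).

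Among the activator branch, KLF2, a regulator of vascular and lymphocyte quiescence, changed most. Its brightest probe set read 9.42, 9.42 and 9.43 in vehicle and 8.69, 8.58 and 8.66 with R1881. The vehicle arrays were almost identical, and every R1881 array lay far below them. The change was -0.78 ± 0.05 (SE, n = 3 per group), with a 95% confidence interval for the ratio of 0.540 to 0.628 and a limma adjusted p of 3.10e-04. It was the 7th largest fall among 18129 genes. The brightest set, 11758208_s_at, carries a suffix for probes that match several transcripts, so a second set, 11721805_at, was compared. It read 8.10, 8.24 and 8.13 in vehicle and 7.57, 7.50 and 7.52 with R1881, again without overlap. Fitted over every probe set, it fell by 0.63 ± 0.06 (SE, limma adjusted p = 0.00257). An exact permutation test of the brightest set gave a two-sided p of 0.10, the smallest that 3 against 3 arrays allow.

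KLF4, the closest relative of KLF2 and a differentiation factor, stood at 7.08, 7.54 and 7.38 in vehicle and at 7.53, 7.70 and 7.48 with R1881. The groups overlapped, since vehicle replicate 2 lay above R1881 replicates 1 and 3. Vehicle replicate 1 was the lowest array, and without it the change was 0.11. Its change of 0.24 ± 0.12 (SE) did not pass (limma adjusted p = 0.428), and the ratio's interval ran from 0.968 to 1.43. A second set stood at 0.22 ± 0.09 (SE), with all 3 vehicle arrays between 5.42 and 5.43 and the R1881 arrays at 5.71, 5.80 and 5.43, so R1881 replicate 3 did not differ from vehicle there. The change of KLF2 minus that of KLF4, taken within arrays, was -1.02, with a spread of the within-array difference of 0.23 in vehicle and 0.17 with R1881 (SD, n = 3 each).

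KLF5, a growth-promoting factor of epithelia, lay below the background level on all 3 of its sets in both groups, so no fold is given. Its brightest set read 4.78, 4.89 and 4.74 in vehicle and 4.99, 4.92 and 5.03 with R1881. That is a difference of 0.18 ± 0.06 (SE, limma adjusted p = 0.223), without overlap. Another KLF5 set stood at -0.08 ± 0.05 (SE), also without overlap, so the sign depended on the probes.

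KLF6, known as a tumour suppressor and an early-response gene, was measured on a bright set at 10.05, 9.98 and 10.15 in vehicle and 10.19, 10.20 and 10.24 with R1881. The groups were close but did not overlap. The difference was 0.15 ± 0.05 (SE, limma adjusted p = 0.283), with the ratio between 1.01 and 1.21, all below the interval of KLF7. All 5 KLF6 sets were higher by sign, from 0.06 to 0.19, and none passed.

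KLF7, a factor best known from neurons and fat tissue, had the clearest rise. Its brightest set, 11759428_a_at, read 7.95, 7.98 and 8.06 in vehicle and 8.51, 8.63 and 8.62 with R1881. All R1881 arrays lay above all vehicle arrays by a wide gap. The change was 0.59 ± 0.05 (SE), the ratio's interval 1.38 to 1.64 and the limma adjusted p 0.00246, and KLF7 held rank 118 among the rises. The gene has 4 probe sets, and none of them overlapped between groups. Over every probe set, 3 passed, the other 2 called sets being higher by 0.39 ± 0.07 and 0.38 ± 0.06 (SE). Both lay close to the threshold (limma adjusted p = 0.0404 and 0.0401). The first of these 2, 11715270_s_at, carries the suffix for probes that match several transcripts. The dimmest stood at 0.27 ± 0.08 (SE, limma adjusted p = 0.247), with arrays from 5.65 to 5.97 and from 6.05 to 6.14. The change of KLF6, its closest relative, minus that of KLF7 was -0.44, with a within-array spread of 0.06 in either group (SD, n = 3 each).

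**Figure D2:**
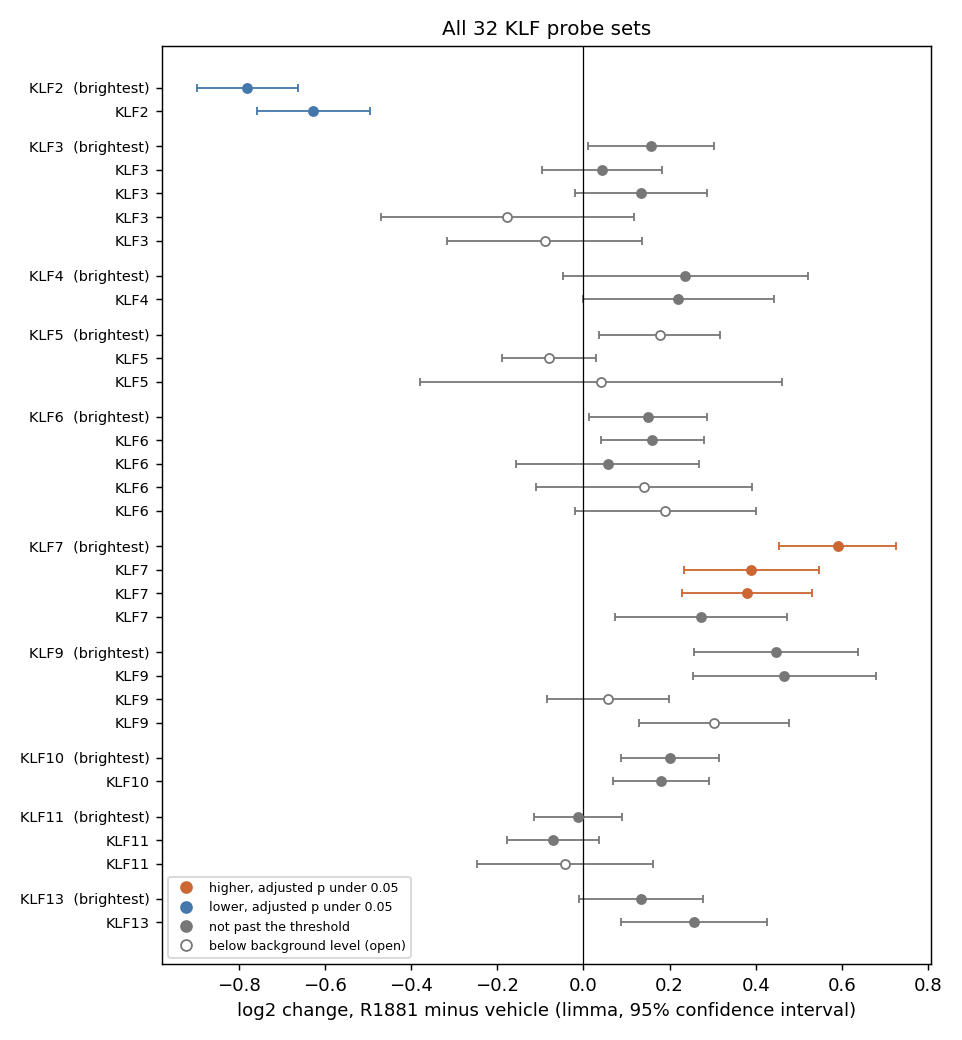
Log2 change (R1881 minus vehicle) of all 32 KLF probe sets with the 95% confidence interval of the limma fit over every probe set, grouped by gene with the brightest set first and open points for sets below background. Both KLF2 sets lie left of 0 and all 4 KLF7 sets right of it, while the sets of KLF3, KLF5 and KLF11 lie around 0.

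KLF3 was the only member examined of the branch that works through CtBP. On its brightest set it stood at 7.64, 7.55 and 7.61 in vehicle and at 7.80, 7.82 and 7.65 with R1881. R1881 replicate 3 lay next to the highest vehicle array, and the difference of 0.16 ± 0.06 (SE) did not pass (limma adjusted p = 0.302). Its 5 sets ranged from -0.18 to 0.16, and the 3 above background were all higher by sign, from 0.04 to 0.16.

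In the SIN3A-recruiting branch, KLF9 was called. KLF9 is a repressor known for its induction by thyroid hormone, glucocorticoids and other nuclear receptor ligands. Its brightest set, 11717326_at, read 6.78, 6.77 and 6.84 in vehicle and 7.30, 7.36 and 7.07 with R1881. The groups did not overlap, but R1881 replicate 3 lay nearer to vehicle than the other R1881 arrays. The change was 0.45 ± 0.08 (SE), with the ratio between 1.20 and 1.55 and a limma adjusted p of 0.0373. The second KLF9 set above background read 5.25, 5.20 and 5.02 in vehicle and 5.66, 5.74 and 5.47 with R1881, with R1881 replicate 3 lowest again. Over every probe set, these sets stood at 0.45 ± 0.08 and 0.47 ± 0.09 (SE) and missed the threshold (limma adjusted p = 0.0517 and 0.0669). Without R1881 replicate 3 the gene's change was 0.53 (limma adjusted p = 0.0136). With any other array left out it was 0.39 to 0.47, and the adjusted p was between 0.123 and 0.152.

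KLF13, a relative of KLF9 known from T cells and heart, stood at 7.58, 7.71 and 7.68 in vehicle and 7.85, 7.81 and 7.71 with R1881. The groups met at 7.71. The difference was 0.13 ± 0.06 (SE, limma adjusted p = 0.363), and a second set stood at 0.26 ± 0.07 (SE) without overlap, short of the threshold too (limma adjusted p = 0.198). The change of KLF9 minus that of KLF13 was 0.31, with a within-array spread of 0.07 in vehicle and 0.10 with R1881 (SD, n = 3 each).

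KLF10, an early gene of TGF-beta signalling, read 9.68, 9.72 and 9.77 in vehicle and 9.91, 9.91 and 9.95 with R1881. The groups did not overlap and both were tight. The difference was 0.20 ± 0.04 (SE), the ratio between 1.07 and 1.24, and the limma adjusted p 0.0856. A second set gave 0.18 ± 0.05 (SE). KLF10 passed with dim genes left out (limma adjusted p = 0.0283) and with a trended, robust prior variance (0.0108), and missed the threshold in the other alternatives that could be run.

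KLF11, the other TGF-beta-inducible member, was flat on its brightest set. It read 7.79, 7.80 and 7.78 in vehicle and 7.78, 7.78 and 7.77 with R1881, so the arrays overlapped. The change was -0.01 ± 0.04 (SE, limma adjusted p = 0.905), and the interval of the ratio, 0.929 to 1.06, leaves out rises of the size of KLF10's point estimate. A second set above background stood at -0.07 ± 0.05 (SE, limma adjusted p = 0.567) without overlap. All 3 KLF11 sets were lower by sign, and none passed. The change of KLF10 minus that of KLF11 was 0.21, with a within-array spread of 0.05 in vehicle and 0.03 with R1881 (SD, n = 3 each).

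These 4 pairs of close relatives were chosen with the values known. In each of them the within-array difference separated the groups, with an exact two-sided permutation p of 0.10, the smallest this design allows, and 0.10 after Benjamini-Hochberg adjustment over the 4 pairs. The changes differed least between KLF10 and KLF11 and most between KLF2 and KLF4.

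Across the members, 8 of the 10 genes were higher by sign on their brightest set, and 6 of these 8 did not pass. The median change of all 10 members was 0.17, beside 0.00 over all genes. The median size of the change regardless of sign was 0.19, beside 0.07 over all genes. At an unadjusted p under 0.05, 7 of 10 genes were counted, beside 14.3% of all genes. The groups did not overlap for 7 of 10 genes, where this held for 18.5% of all genes. Over the 32 probe sets 5 passed, where 1.54% of all probe sets did. They were 3 higher sets, all of KLF7, beside 1.12% of all sets, and 2 lower sets, both of KLF2, beside 0.427%. Only 1 set was still called higher without vehicle replicate 1, vehicle replicate 3 or R1881 replicate 1. The groups did not overlap for 18 of the 32 sets, where 16.8% of all sets had no overlap. Of the 22 sets above background in at least 1 group, 18 were higher by sign.

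**Figure D3:**
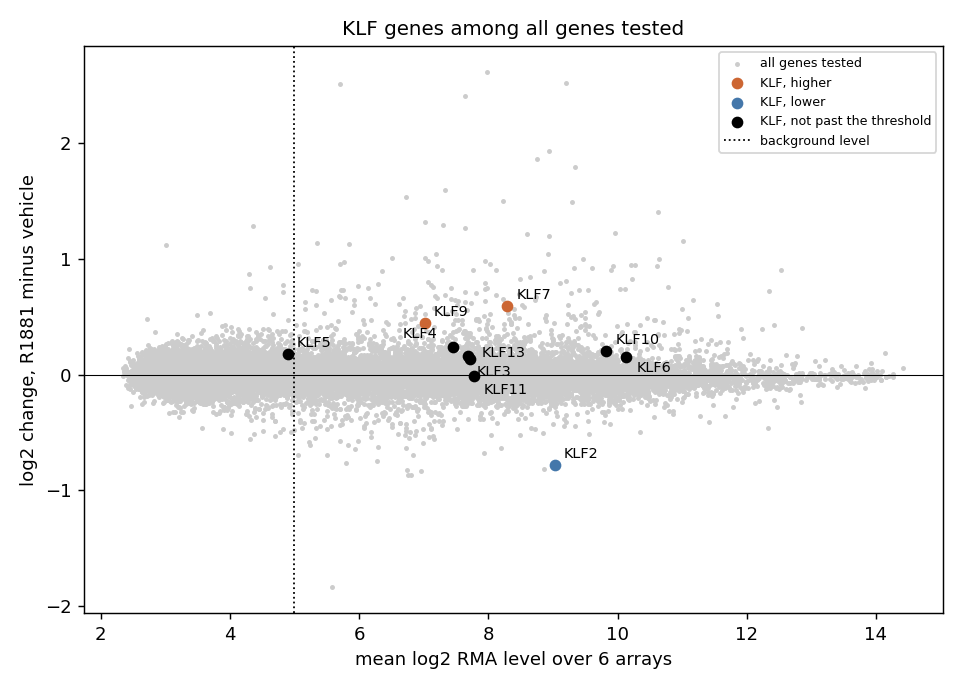
Log2 change (R1881 minus vehicle) against the mean log2 level over 6 arrays for all genes tested in grey, with the 10 KLF genes marked by their call. KLF2 lies at the lower edge of the cloud at -0.78, KLF7 and KLF9 lie above it at 0.59 and 0.45, and most other members lie between 0.13 and 0.24.

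The 7 KLF genes outside the examined set, KLF1, KLF8, KLF12, KLF14, KLF15, KLF16 and KLF17, gave no call by limma (2 with an unadjusted p under 0.05), with a median change of -0.03. Only 3 of them lay above background. KLF17, an early embryonic factor, stood at -0.25 ± 0.07 (SE, limma adjusted p = 0.150). KLF15, a glucocorticoid-induced metabolic regulator, stood at 0.22 ± 0.08 (SE) with both groups below background, at 3.73 and 3.95. Of the 9 SP genes, which encode the related Sp factors, none passed by limma (1 with an unadjusted p under 0.05), and their changes ran from -0.15 for SP3 to 0.04 for SP7.

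Among 14 measured coregulators that KLF proteins recruit, 2 rose and 12 did not pass, and the median change was 0.04. SAP30, a subunit of the SIN3 and histone deacetylase complex, rose by 0.29 ± 0.05 (SE), and the acetyltransferase gene KAT2B by 0.31 ± 0.05 (SE). SIN3A stood at 0.11 ± 0.06, SIN3B at 0.10 ± 0.06 and CTBP1 at 0.08 ± 0.06 (SE), all short of the threshold. The limma adjusted p was 0.0246 for SAP30 and 0.0345 for KAT2B, and neither kept its call in any of the 6 leave-outs (highest values 0.112 and 0.144).

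Of 14 genes upstream of KLF transcription, 2 rose and 12 did not pass, and the median change was 0.08. FOXO1, a factor known to induce KLF2 in lymphocytes, rose by 0.44 ± 0.07 (SE, limma adjusted p = 0.0217). TGFBR2, a receptor of the pathway that induces KLF10 and KLF11, rose by 0.34 ± 0.06 (SE, limma adjusted p = 0.0270). FOXO1 kept its call only without R1881 replicate 1 (adjusted p up to 0.106 otherwise) and TGFBR2 only without R1881 replicate 3 (up to 0.123). TGFBR1 stood at 0.19 ± 0.05 (SE, limma adjusted p = 0.134). MEF2A, of the MEF2 factor family, stood at 0.24 ± 0.06 (SE, limma adjusted p = 0.106), and MAP2K5 at -0.09 ± 0.07 (SE). Of 10 measured genes of KLF protein turnover none passed by limma, and none had an unadjusted p under 0.05. The values with the smallest p were -0.14 ± 0.06 for the ubiquitin ligase gene SIAH1 and 0.08 ± 0.05 for WWTR1 (SE).

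Genes known as targets of KLF proteins in other cells were read from 3 lists. Of 19 measured vascular targets of KLF2 and KLF4, 4 rose and 15 did not pass, the median change was 0.05, and only 8 of the 19 lay above background. Those that rose were F3, the tissue factor gene (1.01 ± 0.09, SE), the chemokine genes CCL2 (0.39 ± 0.05) and CXCL8 (0.46 ± 0.07), and TEK, the angiopoietin receptor gene, from 3.72 to 5.0, at the background level. CXCL8 kept its call only without vehicle replicate 1 (limma adjusted p up to 0.0976 otherwise), and CCL2 lost it without vehicle replicate 3 (0.0501). F3, CCL2 and CXCL8 are genes that KLF2 is known to restrain in endothelium, and TEK is one it is known to induce. THBD, the thrombomodulin gene and a classic KLF2-induced gene, lay below background in both groups, at 4.16 and 3.93. NOS3 of the same list stood around the background level, at 4.85 and 5.05, and did not pass (limma adjusted p = 0.624). EDN1 and SELE, both below background, changed by 0.05 ± 0.07 (SE) each. Endothelial markers other than TEK gave no call, as their levels above describe, and the part of KLF2 in these values was not tested.

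Of 21 measured epithelial and growth targets of KLF4, KLF5 and KLF6, 2 rose, 1 fell and 18 did not pass, with a median of -0.10. SNAI2, which encodes the transcription factor Slug and is repressed by KLF4 in mammary cells, rose by 1.53 ± 0.06 (SE). CDKN1A, a cell cycle inhibitor gene that both KLF4 and KLF6 activate elsewhere, rose by 0.42 ± 0.05 (SE). PLAU, the urokinase gene, fell by 0.46 ± 0.04 (SE, limma adjusted p = 0.00307). BIRC5 stood at -0.20 ± 0.04 (SE, limma adjusted p = 0.0647). Of 11 measured targets of KLF9, KLF10, KLF11 and KLF13, 1 rose and 10 did not pass, with a median of 0.06. The one that rose was CCL5, a chemokine gene that KLF13 activates in T cells, from 6.84 to 7.74, or by 0.91 ± 0.05 (SE, limma adjusted p = 2.97e-04). SMAD7, repressed by KLF10 and KLF11 in other cells, stood at -0.10 ± 0.09 (SE) and BMAL1, a clock gene, at 0.19 ± 0.08 (SE, limma adjusted p = 0.352).

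KLF9 is also a member of a list of 14 regulators that steroids induce in many cells, of which 6 rose and 8 did not pass, with a median change of 0.36. Besides KLF9 and FKBP5, TSC22D3, the gene of the glucocorticoid-induced leucine zipper, rose by 0.76 ± 0.06, DUSP1, a phosphatase of MAP kinases, by 0.74 ± 0.04, NFKBIA by 0.41 ± 0.05 and ERRFI1, an inhibitor of the epidermal growth factor receptor, by 0.40 ± 0.04 (SE). Of these called genes, KLF9 had the largest SE and the highest adjusted p. CEBPB, at 0.37 ± 0.08 (SE), missed the threshold (limma adjusted p = 0.0690).

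**Figure D4:**
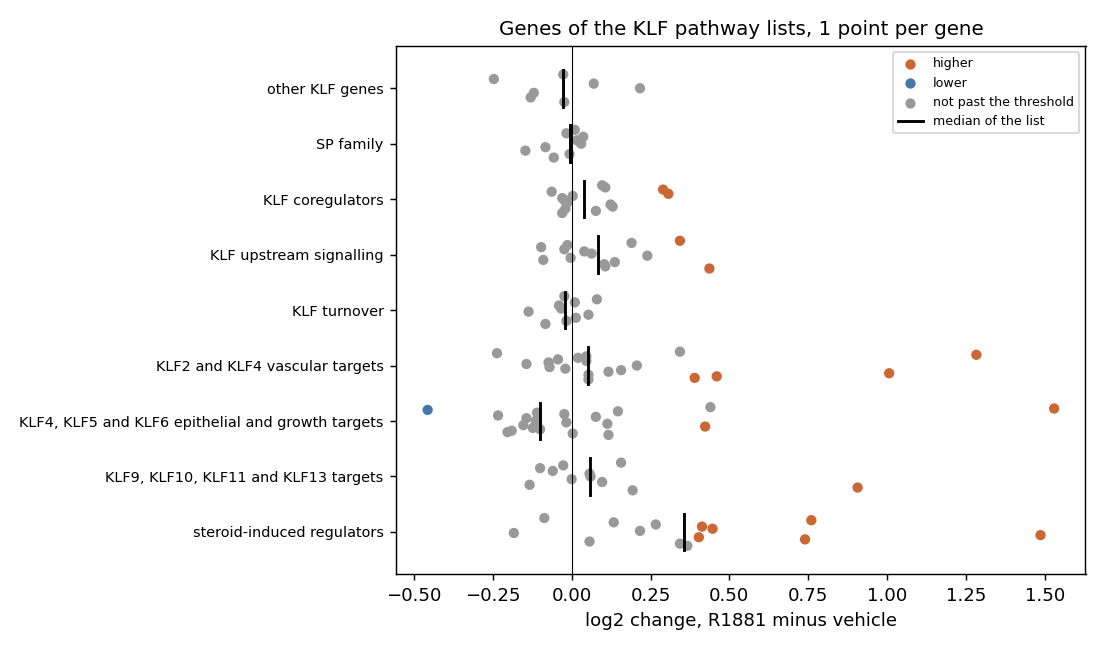
Log2 change (R1881 minus vehicle) of each gene in the 9 lists, on its brightest probe set, with 1 point per gene, coloured by call, and the list's median as a bar. The steroid-induced regulators lie mostly to the right with a median of 0.36, and the SP family and the turnover genes lie around 0.

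**Figure D5:**
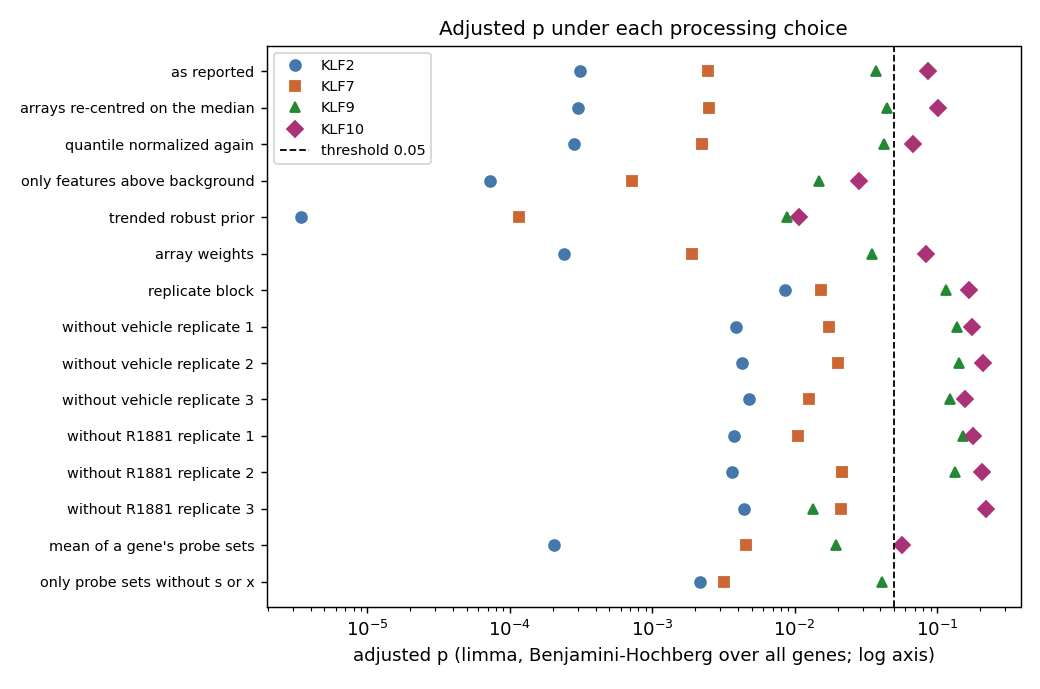
Adjusted p of 4 KLF genes on a log axis as reported and under each alternative, with the threshold of 0.05 dashed. KLF2 and KLF7 stay left of it in every fit shown, KLF9 crosses it with the replicate block and in 5 of the 6 leave-outs, and KLF10 crosses it to the left in 2 fits.

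KLF2 and KLF7 kept their direction and call in all 14 alternatives each. The change of KLF2 ran from -0.80 to -0.63 and that of KLF7 from 0.41 to 0.63, and the largest limma adjusted p was 0.00860 and 0.0214.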

How the data were processed

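The authors deposited 1 log2 value per probe set and array, made with RMA per the submitters' processing notes, with no version or filter named in the sources used here. The values are rounded to 2 decimals, and a shift of the whole transcriptome would be removed by RMA. Gene names came from the annotation table of the array platform, which gives 1 symbol to 44898 probe sets, several to 1825 and none to 2470.

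R1881 was compared with vehicle in limma 3.58.1 under R 4.3.3 (lmFit, eBayes, no trend, no filter), once over all 49193 probe sets and once over 18129 genes on their brightest set. P-values are two-sided with Benjamini-Hochberg adjustment over all rows fitted. Values of a gene come from the fit over genes on its brightest set, and those of its other sets, or of every probe set, from the fit over all probe sets. Both fits were tested on simulated data. Named genes were the members, FKBP5, up to 4 of each list by smallest p and all called ones where 5 or fewer passed. A few others (THBD, NOS3, EDN1, SELE, SIN3A, CTBP1, MAP2K5, SMAD7 and single markers) were picked after their values were seen. The members, lists and tests were chosen with earlier results of these data known. Only 3 arrays per group limit the precision, and no separate cultures are described beyond the words of the design text. No 2 arrays shared more than 9.02% of their values. Promoter windows came from RefSeq, GRCh38.p14. Alternatives were re-centring, re-normalization, a filter on dim features, other priors, array weights, a replicate block, other choices of probe set and leaving out each array.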

Additional observations from a re-analysis of the deposited data

How the results depend on the processing

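With only features above background, 6 KLF probe sets were higher, with a trended robust prior 7 and with array weights 5, against 3 as reported, while 2 were lower in each. These fits called 1383 of the 27648 probe sets above background, and 1525 and 861 of all 49193, against 759 as reported. Leaving out 1 array gave 1 to 2 probe sets higher and 1 to 2 genes higher, and 2 sets and 1 gene lower each time. These leave-outs called 302 to 406 of all probe sets. With the replicate number as a block, 1 gene was higher (KLF7) and 1 lower, since KLF9 had an adjusted p of 0.115. Same-numbered deviations correlated by 0.15, 0.10 and 0.05, not all over 0.1, so the arrays were taken to share only a number. As a hint from the data, each array but vehicle replicate 3 correlated best with its own number. The fit with the block and the leave-outs have fewer residual degrees of freedom. Among them, KLF9 kept its call only without R1881 replicate 3 (limma adjusted p = 0.0136). The cause of the KLF9 loss was not tested. KLF5 turned to -0.08 with probe sets without s or x only, below background. KLF5 with dim genes left out and KLF10 without s or x sets could not be fitted. All other member directions held in every alternative run. Genes called over all were 438 of 18129, but 757 of the 11049 above background. They were 895 with the trended prior, 489 with array weights, 222 with the block and 209 to 270 in the leave-outs.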

Other observations

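KLF12, a repressor of the same branch as KLF3, was measured on 4 probe sets above background. They stood at -0.13, -0.16, -0.15 and -0.02 on the log2 scale in the fit over every probe set, none past the threshold (smallest limma adjusted p = 0.406). KLF3 sets above background lay on the other side of 0, and the difference between both genes was not tested. The 4 sets of KLF16 stood at 0.07, 0.14, -0.10 and -0.08, so that gene had no single direction.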
